A study of Mus musculus with 15 samples.

Results

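In this comparison, mRNA expression in thymocytes of 1 mouse that lacked H-ras was set against that of 1 mouse that lacked N-ras. The values were those of 22690 Affymetrix probe sets, and the difference was always the log2 value in H-ras KO thymocytes minus that in N-ras KO thymocytes. Attention was given to genes for which at least 2 probe sets differed 1.5-fold or more (0.58 on the log2 scale) in the same direction. Several probe sets of one gene can read different parts of its transcripts, but they may also overlap. Their agreement is therefore not that of independent measurements. Of 12394 genes named by probe sets that name no other gene, 4958 had 2 or more probe sets, and 62 of these met the rule. Of the 62 genes, 27 were higher in H-ras KO thymocytes (0.545% of the genes with 2 or more probe sets) and 35 were lower (0.706%). These 62 genes are called the concordant genes here, and their probe sets past 1.5-fold in the shared direction the concordant probe sets. The choice used the difference itself, so the differences of these genes are a description. With 1 array per genotype there was no replicate check, no error and no p-value.

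Both KO strains had the 129/SJ background, and homozygous KO mice came from heterozygous parents. The WT mice were drawn from the litters of either strain. The labels give an age of 6 to 20 weeks for all mice. The thymocytes received no treatment before RNA isolation, and 1 more array of the same type held thymocytes of 1 WT mouse. RNA was taken from thymocytes as a whole, so that fewer cells of a type and less RNA per cell cannot be told apart, and a difference between genotypes cannot be told apart from one between individual mice. The rest of the series comprises 12 arrays of CD4+ T cells from WT and N-ras KO mice, in 4 groups of 3. These cells were left unstimulated or received an overnight low-level stimulus with antibodies to CD3e and CD28.

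Ras proteins are small GTPases that pass signals from surface receptors, among them the T-cell receptor (TCR), to kinase cascades. Exchange factors load them with GTP, and GTPase-activating proteins switch them off. N-ras and H-ras are close relatives that differ mainly at their C-termini, where lipid groups set the membranes on which each protein resides. In the thymus, TCR signals through Ras take part in the selection of immature thymocytes into mature CD4 or CD8 cells.

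On every one of the 22690 probe sets the median of the 3 thymocyte arrays was 0, so a value says how an array stood to the others and not how strongly a gene was expressed. For the same reason, presence or absence of a marker cannot be read from these values. Past 1.5-fold, 237 probe sets (1.04%) were higher in H-ras KO thymocytes and 312 (1.38%) were lower. The median difference over all probe sets was 0. None of the 8 genes taken to define thymocytes passed 1.5-fold. Cd3e, which encodes a chain of the TCR complex, differed by -0.05 on the log2 scale. The coreceptor gene Cd4 differed by 0.02 and -0.04 on its 2 probe sets, and Cd8a by 0.03 and 0.07. The recombinase genes Rag1 and Rag2 differed by -0.05 and 0.25. Cd3g differed by -0.15. Ptcra, the pre-TCR α chain, differed by -0.38, and Dntt, which adds bases at recombined joints, by 0.08 to 0.34.

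The deleted genes followed their labels. Nras read -1.81, -2.44 and -2.38 on its 3 probe sets in the N-ras KO, between 0 and 0.28 in the H-ras KO and between 0 and 0.02 in the WT. The N-ras KO array was therefore the low one on each probe set, and the 3 differences were 1.97, 2.44 and 2.66. On its least affected probe set, Nras still differed more than any other of the 27 higher genes did on theirs. Hras was read by the probe set that the tables of the study assign to it, for which the annotation used here lists no gene. It read 0.17 in the WT, 0 in the N-ras KO and -2.85 in the H-ras KO, so that here the H-ras KO array was the low one. Having 1 probe set, Hras was not among the 62 genes. No other gene of the Ras GTPase list passed 1.5-fold on any probe set, of 15 measured, and the mean differences of that list ranged from -0.30 to 2.36.

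**Figure D1:**
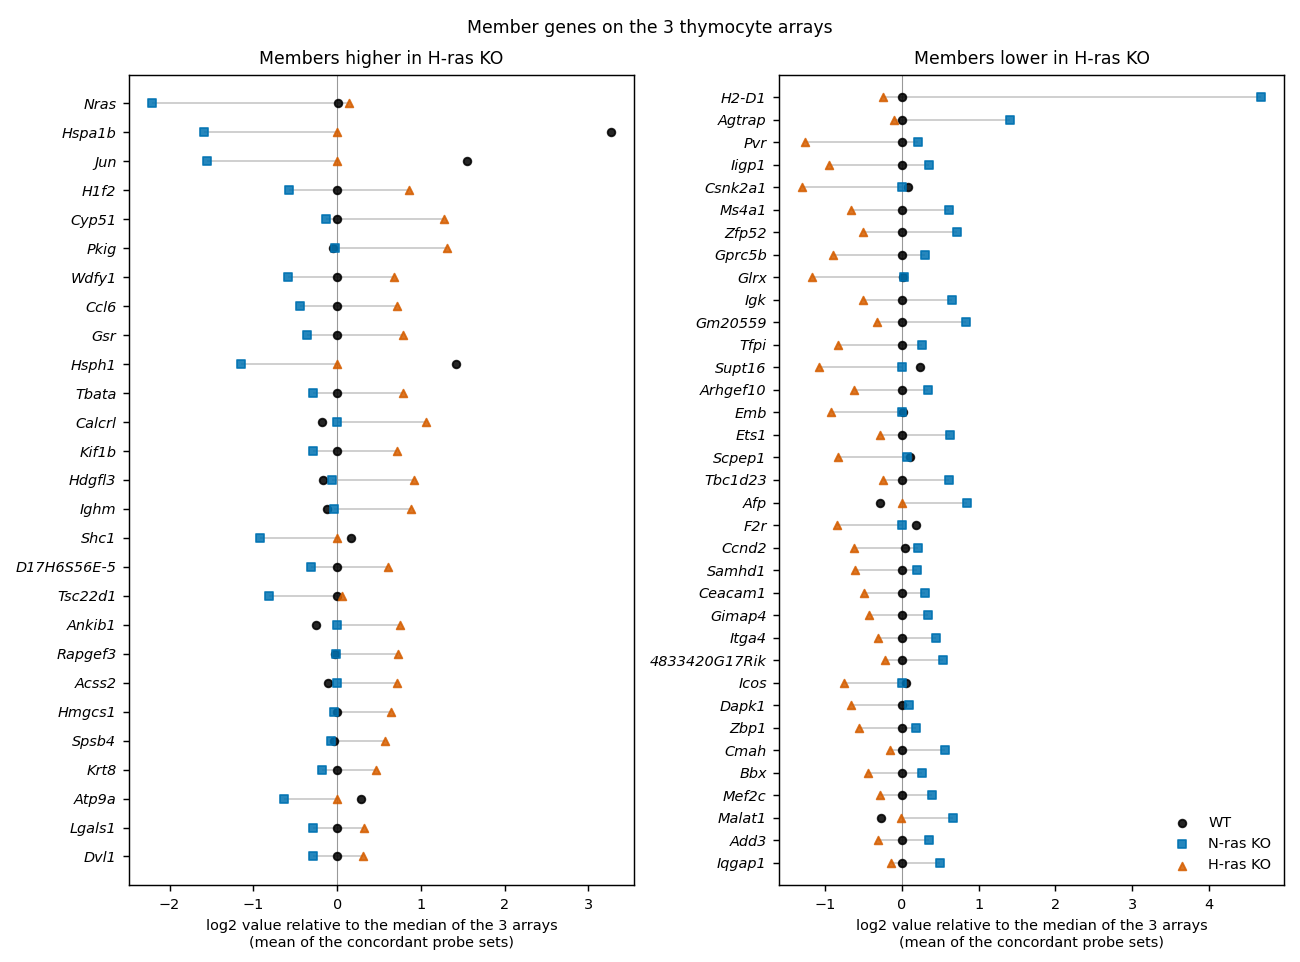
Values of the 27 genes higher (left) and 35 genes lower (right) in H-ras KO thymocytes, on a log2 scale relative to the median of the 3 arrays. Each symbol is 1 array and the mean over the concordant probe sets of the gene, and the grey line joins both KO arrays. Nras is low in the N-ras KO alone, H2-D1 is high in the N-ras KO alone, and Hspa1b, Jun and Hsph1 are highest in the WT.

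The 3 values of a gene show where the WT value lay against both KO values. The position of the WT value between both KO values was divided into 3 equal parts. For 29 of the 62 genes (46.8%) the WT value lay in the part next to the N-ras KO or beyond it, and the H-ras KO was the array that stood apart. For 17 genes (27.4%) the WT value lay next to the H-ras KO or beyond it, and for 16 (25.8%) it lay between. Over all 549 probe sets past 1.5-fold these shares were 50.8%, 25.9% and 23.3%. The concordant genes were thus divided about as all probe sets past 1.5-fold were. That likeness is partly built in, since the 549 include the 142 concordant probe sets. Means of genes are also set against single probe sets here. In 20 of the 62 genes the WT value lay outside the range of the KO values. Among these, in Hspa1b and Hsph1 it was the WT array that stood apart. There the H-ras KO at 0 was nearer to the N-ras KO (-1.58 and -1.14) than to the WT (3.27 and 1.42), as means over the concordant probe sets. This division rests on a single WT array.

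Among genes that act next to Ras, the adaptor gene Shc1 was higher in H-ras KO thymocytes. Shc1 links receptors to Grb2 and the exchange factor Sos. Its probe sets read -0.80 and -1.04 in the N-ras KO, 0 in the H-ras KO and 0.26 and 0.07 in the WT, so that the N-ras KO array was the low one on both. Rapgef3, an exchange factor for the Ras relative Rap that responds to cyclic AMP, was also higher, by 0.74 and 0.75 on 2 of 4 probe sets. Its other 2 probe sets fell just short, at 0.58 and 0.57. Pkig, an inhibitor of the cyclic AMP-dependent kinase, was higher by 0.86 and 1.83, with the H-ras KO array at 0.79 and 1.83 and the other arrays at or near 0. None of the 36 measured genes on the list of Ras regulators and effectors, which does not hold Shc1, Rapgef3 or Pkig, was concordant. On that list 1 gene had a probe set at least 1.5-fold higher (Dusp1 at 0.67) and 1 gene one at least as much lower (Rgl1 at down to -0.74). Over all 12394 genes, 168 had any probe set past 1.5-fold on the higher side (1.36%) and 220 had one on the lower side (1.78%).

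Stress-response genes were among the leading genes on the higher side. Hspa1b, which encodes an inducible Hsp70 chaperone, read -1.36, -2.01 and -1.39 in the N-ras KO, 0 in the H-ras KO on each probe set and 3.20, 3.33 and 3.29 in the WT. Hsph1, which encodes an Hsp110 chaperone, read -1.20 and -1.09 in the N-ras KO, 0 in the H-ras KO and 1.47 and 1.37 in the WT. Jun, a subunit of the AP-1 transcription factor and an immediate early gene, read -1.59 and -1.53 in the N-ras KO, 0 in the H-ras KO and 1.80 and 1.29 in the WT. All 7 probe sets had the same order, with the N-ras KO lowest, the H-ras KO in the middle and the WT highest, so the WT stood farther from the N-ras KO than the H-ras KO did. The differences between the KO arrays were 1.36 to 2.01 for Hspa1b, 1.09 and 1.20 for Hsph1 and 1.53 and 1.59 for Jun. Hspa1b and its neighbour Hspa1a are nearly identical, and their signals may not be separable on these probe sets. The 1 probe set that names Hspa1a alone differed by 0.52, short of 1.5-fold. Of 19 heat shock genes measured, 18 had a mean difference above 0, with a median of 0.23 against 0 over all genes. Only Hspa1b and Hsph1 passed 1.5-fold on that list. Of 27 immediate early genes, Jun and Fos did, with Fos at 1.91 on its 1 probe set and a list median of -0.01. For the heat shock list the median was 0.59 for WT minus N-ras KO and -0.38 for H-ras KO minus WT. For the immediate early list these medians were 0.63 and -0.63, so that on that list the WT stood equally far above both KO arrays. Genotype and single mouse cannot be told apart in these values.

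Heat shock factor binds inverted repeats of GAA, and the motif GAANNTTC (its own reverse complement, N being any base) was searched in promoter windows from 250 bases before to 50 bases after each transcription start. The windows of 3 of the 23 higher genes with an entry held it, namely Hspa1b, Hsph1 and Jun, and 1 of 25 lower genes, Gimap4. Of all 27025 genes with a promoter entry, 9.04% held it. In Hsph1 the match lies after the start. The 250 bases before the start of Hspa1b (chr17:34959239-34959488, minus strand) and of Jun (chr4:95052223-95052472, minus strand) are shown from RefSeq (GRCm38.p6), 5′ to 3′, because both genes had the same order over the arrays. Capitals mark the motif.
Hspa1b: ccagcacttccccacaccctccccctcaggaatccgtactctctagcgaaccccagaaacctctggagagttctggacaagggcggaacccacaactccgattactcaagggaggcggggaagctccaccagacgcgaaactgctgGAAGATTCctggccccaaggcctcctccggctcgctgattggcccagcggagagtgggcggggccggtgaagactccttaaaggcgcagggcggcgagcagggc
Jun: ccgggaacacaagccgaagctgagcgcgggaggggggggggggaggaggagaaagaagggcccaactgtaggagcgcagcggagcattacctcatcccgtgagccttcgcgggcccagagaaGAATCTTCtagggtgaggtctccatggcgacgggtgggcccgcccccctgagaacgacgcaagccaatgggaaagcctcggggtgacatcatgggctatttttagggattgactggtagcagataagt
The match begins 104 bases before the start in Hspa1b and 128 bases before it in Jun. A match to these letters is a description and not a measured binding site.

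Of 23 measured genes on the cholesterol list, 5 had a probe set at least 1.5-fold higher in H-ras KO thymocytes and none had one lower, and 3 of the 5 were concordant. Cyp51, the lanosterol demethylase of cholesterol synthesis, read 1.80 and 0.76 in the H-ras KO on its concordant probe sets, -0.26 and -0.01 in the N-ras KO and 0 in the WT. The third probe set differed by -0.10 only. Hmgcs1, which makes the HMG-CoA used by HMG-CoA reductase, differed by 0.73 and 0.62, and its other 2 probe sets by 0.51 each. Acss2, a cytosolic acetyl-CoA synthetase, read 0.77 and 0.65 in the H-ras KO and 0 in the N-ras KO, with the WT at 0 and -0.21. In each of the 3 genes the H-ras KO array was the one that stood apart, whereas N-ras KO and WT lay close together. The other genes past 1.5-fold were Sqle, the squalene epoxidase, at 0.81 on 1 probe set and Fdft1, the squalene synthase, at up to 0.63. Mean differences were above 0 for 13 of the 23 genes and below 0 for 5, with a median of 0.12.

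The transcription factors of sterol response (SREBP) bind sterol regulatory elements. The letters TCACNCCAC, searched on both strands, were in the promoter windows of 1.44% of all 27025 genes, of 3 of 23 higher genes (Atp9a, Hmgcs1 and Pkig) and of 1 of 25 lower genes (Malat1). The windows of Cyp51 and Acss2 did not hold these letters. The stretch before the start of Hmgcs1 (chr13:119690101-119690350, plus strand, GRCm38.p6, RefSeq) is shown because it is the concordant gene of the pathway whose window held the motif, given in capitals.
Hmgcs1: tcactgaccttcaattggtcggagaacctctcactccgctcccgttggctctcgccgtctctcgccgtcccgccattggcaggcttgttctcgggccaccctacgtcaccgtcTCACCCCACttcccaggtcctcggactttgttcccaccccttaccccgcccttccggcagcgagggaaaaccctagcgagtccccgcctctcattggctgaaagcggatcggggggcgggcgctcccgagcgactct
The motif begins 137 bases before the start. The interferon-stimulated response element (TTTCNNTTT) and the AP-1 site (TGANTCA), searched in the same way, were in the windows of 12.1% and 8.97% of all genes. They were in 2 and 1 of the 23 higher genes, and in 3 each of the 25 lower genes. None of these lower genes was on the interferon list.

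The other leading genes on the higher side have varied roles. Glutathione reductase, Gsr, read 0.53 and 1.04 in the H-ras KO and -0.49 and -0.23 in the N-ras KO, with the WT at 0. Glutaredoxin, Glrx, which uses reduced glutathione, went the other way, at -1.17 on both probe sets in the H-ras KO, 0.05 and 0 in the N-ras KO and 0 and 0.02 in the WT. Glrx was thus low in the H-ras KO alone. The linker histone gene H1f2 read 0.90 and 0.82 in the H-ras KO and -0.65 and -0.51 in the N-ras KO, and the third probe set differed by 0.14. The WT lay between on both concordant probe sets. Of 6 histone genes measured alone by a probe set, 3 were at least 1.5-fold higher (H1f2, H1f4 and H2bc22) and H2bc18 was lower, at -1.29. Histone genes are a multigene family whose probe sets may share signal. Ccl6, a chemokine of myeloid cells, differed by 0.99 and 1.32. Wdfy1, an endosomal protein, differed by 0.96 and 1.57 on 2 of 3 probe sets. D17H6S56E-5 differed by 0.91 on both of its probe sets. Kif1b, a kinesin motor, differed by 0.74 to 1.17 on 4 of 7 probe sets, and the other 3 lay between 0 and 0.05. Tsc22d1, a transcription regulator that responds to TGF-β, read -0.73 to -0.89 in the N-ras KO on 3 of 6 probe sets, with H-ras KO between 0.01 and 0.15 and WT at 0. The N-ras KO array was the one that stood apart in Tsc22d1.

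Genes of thymic epithelium were among those higher in H-ras KO thymocytes. Tbata, a protein of thymic epithelial cells, read 0.66, 0.70 and 1.02 in the H-ras KO and -0.27, -0.25 and -0.33 in the N-ras KO, with the WT at 0. The fourth probe set differed by 0.42. The keratin gene Krt8 differed by 0.68, 0.59 and 0.58, the last just short of 1.5-fold. Of 22 measured genes on the epithelium and stroma list, 5 had a probe set at least 1.5-fold higher. These were Krt8, Krt18 at 1.19, the chemokine genes Ccl25 at 1.16 and Cxcl12 at up to 0.76, and Vcam1 at up to 0.71. The tight junction gene Cldn4 was lower, at -0.85. The median of the list was 0.00, so that most of its genes differed little. The part of epithelial cells in these values was not tested.

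**Figure D2:**
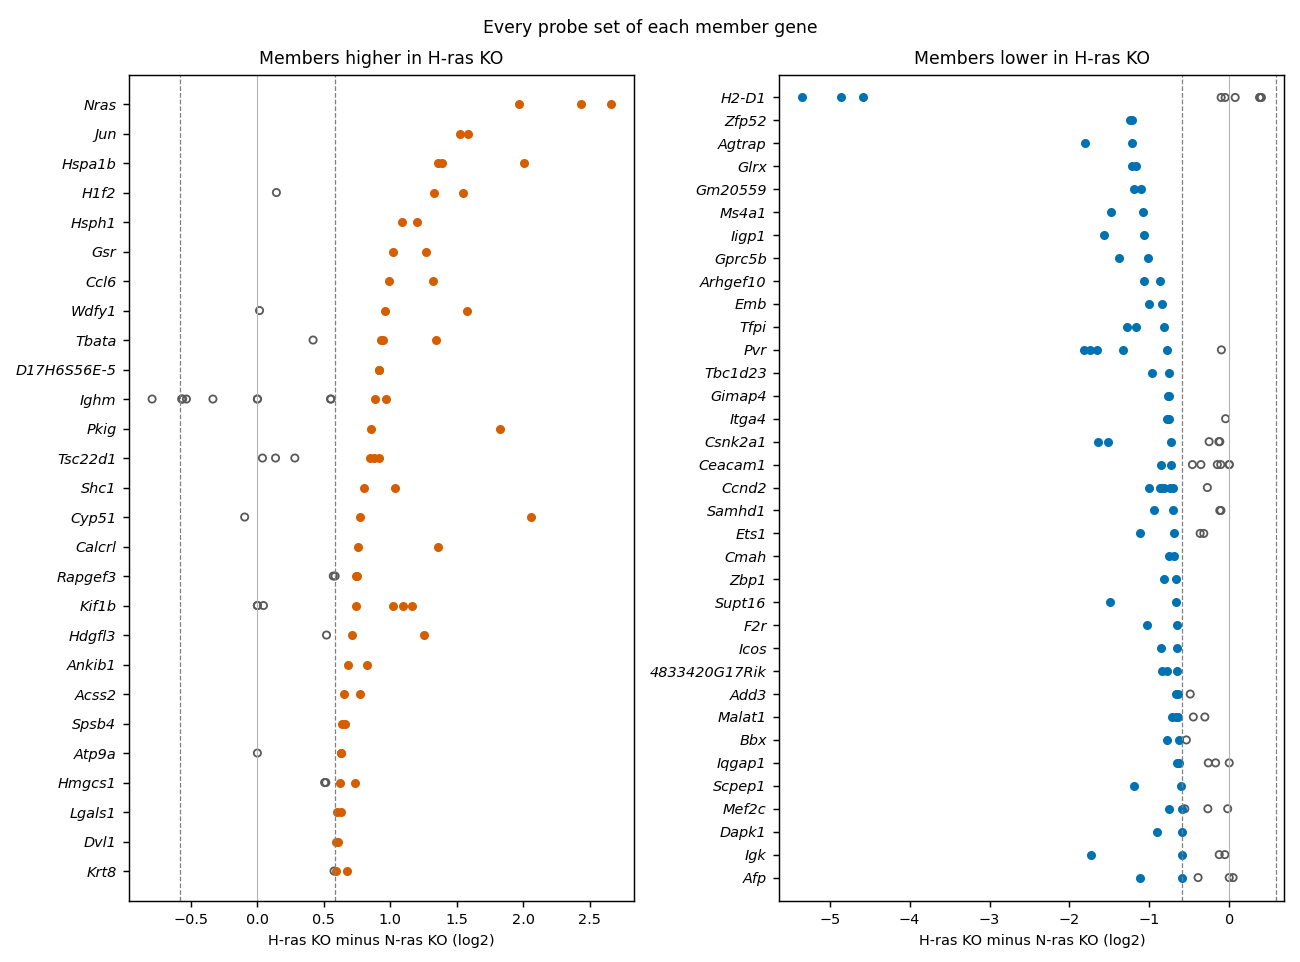
Difference of H-ras KO minus N-ras KO on the log2 scale for every probe set of each of the 62 genes, higher on the left and lower on the right. Filled points are concordant probe sets, open points the others, and dashed lines 1.5-fold. H2-D1 has 3 probe sets at -4.58 or lower and 6 near 0, whereas Ighm has probe sets on both sides of 0.

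On the lower side the largest differences were those of H2-D1, a classical MHC class I gene. On 3 of its 9 probe sets the N-ras KO array read 4.49, 4.67 and 4.88, whereas the H-ras KO read -0.09, -0.20 and -0.46 and the WT 0. The differences were -4.58, -4.86 and -5.34. The N-ras KO array stood apart on these 3 probe sets. The other 6 probe sets of H2-D1 differed by -0.10 to 0.40. All 3 concordant probe sets have IDs that mark probes matching several sequences, and class I genes are a family of near-identical, polymorphic members. The same 3 probe sets spanned 6.62 to 8.13 log2 units between the 3 arrays of each CD4+ T cell group as labelled. In 4 of these 12 arrays, 1 per group, Nras on average goes against the label, as given with the spread at the end. Without these 4 the range was 6.22 to 7.26 in the groups labelled WT and 1.20 to 1.61 in those labelled N-ras KO, each over 2 arrays. Of 7 class I genes measured, 1 had a probe set past 1.5-fold on the higher side and 2 on the lower, with a median of -0.14. H2-Q2 differed by 1.0 and H2-M3 by -0.99, each on 1 probe set. H2-K1 differed by -0.36 to 0.40 on its 4 probe sets, and B2m, the light chain shared by class I molecules, by -0.30 and -0.27.

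Pvr and Csnk2a1 were low in the H-ras KO alone on several probe sets. Pvr, a nectin-like surface ligand bound by CD226, TIGIT and CD96, read -1.66, -1.05, -1.48, -0.57 and -1.53 in the H-ras KO on 5 of 6 probe sets. The N-ras KO read between 0.16 and 0.29 there and the WT 0. The remaining probe set differed by -0.10. Cd96, which encodes one of these receptors, was lower by 3.29 on its 1 probe set and could therefore not enter the rule. Csnk2a1, a catalytic subunit of casein kinase 2, read -1.51, -1.64 and -0.73 in the H-ras KO, 0 in the N-ras KO and 0.05, 0.07 and 0.12 in the WT. Its other 3 probe sets differed by -0.25 to -0.12, so that only part of the probe sets read the difference.

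Cyclin D2, Ccnd2, which drives entry into the cell cycle, had more concordant probe sets than any other of the 62 genes, 6 of 7. The differences of these 6 ranged from -1.0 to -0.71, and the last probe set differed by -0.27. H-ras KO values were -0.85 to -0.40, N-ras KO values 0 to 0.60 and WT values 0 to 0.10. The H-ras KO array was lowest on each of these probe sets. Its relative Ccnd1 had 1 probe set higher by 0.63, 1 lower by 0.73 on the log2 scale and 1 at 0. Of 39 genes of cell cycle and mitosis, 3 had a probe set at least 1.5-fold higher and 2 one lower, with a median of 0.16. The 3 were Ttk at 0.92, Bub1 at up to 0.65 and Ccnd1, which was also among the 2. Mean differences were above 0 for 28 of the 39 genes and below 0 for 10. Ccnd2 had the lowest, at -0.75 over all its probe sets, and so went against most of the list. Ccnd2 was the only concordant gene on that list.

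Several surface and signalling genes of T cells were lower in H-ras KO thymocytes. Gimap4, a GTPase of lymphocytes, read -0.48 and -0.37 in the H-ras KO and 0.29 and 0.38 in the N-ras KO, with the WT at 0. Itga4, the α4 integrin used in homing, differed by -0.77 and -0.75 on 2 of 3 probe sets. Icos, a costimulatory receptor, differed by -0.65 and -0.85, with the H-ras KO array standing apart. Ets1, a transcription factor of lymphocytes, differed by -0.69 and -1.12 on 2 of 4 probe sets. Of 33 measured genes on the list of mature and homing T cells, 11 had a probe set at least 1.5-fold lower and none one higher. They include Ccr7, the receptor for lymph node chemokines, at -0.88, S1pr1, the receptor for exit from the thymus, at -1.01, Slfn1 at -1.09 and Gimap3 at -0.97, each on 1 probe set. The mean difference was below 0 for 32 of the 33 genes, with a median of -0.38. On this list the median of WT minus N-ras KO was -0.17 and that of H-ras KO minus WT -0.20, so that the WT lay about midway. On the list of immature thymocytes and recombination, 3 of 26 genes had a lower probe set (Dtx1 at -1.06, Il2ra at down to -0.59 and Il7r at down to -0.62) and none a higher one, with a median of -0.07, and no gene of the TCR complex list passed 1.5-fold, of 28.

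Of 18 measured B cell genes, 9 had a probe set past 1.5-fold on the lower side, and Ighm among these 9 also had probe sets past it on the higher side. Ms4a1, which encodes the B cell surface protein CD20, read -0.62 and -0.70 in the H-ras KO and 0.46 and 0.78 in the N-ras KO, with the WT at 0 between them. The κ light chain probe sets named Igk differed by -1.73 and -0.59 on 2 of 4. The 9 genes include Cd22 at down to -0.79, Cd79a at -0.67 and Blnk at -0.72. The heavy chain gene Ighm was counted on the higher side, at 0.88 and 0.96 on 2 of 11 probe sets, but another of its probe sets was at -0.79 and the whole set ran from -0.79 to 0.96. Immunoglobulin probe sets read a multigene locus, and the direction of Ighm is therefore uncertain. Mean differences on the list were below 0 for 11 of the 18 genes and above 0 for 3, with a median of -0.29. Of 10 MHC class II and antigen presentation genes, 3 had a lower probe set (Cd74, H2-Aa and H2-DMb2), with a median of -0.44. The part of B cells and other antigen-presenting cells in these values was not tested.

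The interferon-induced GTPase gene Iigp1 read -0.80 and -1.11 in the H-ras KO and 0.27 and 0.45 in the N-ras KO, with the WT at 0. Zbp1, a sensor of Z-form nucleic acids, differed by -0.67 and -0.82. Of 37 interferon response genes, 7 had a probe set at least 1.5-fold lower and none one higher. These 7 include Ifit3 at -0.89, Ifi27l2a at -0.81 and Ifit1 at -0.59. Mean differences were below 0 for 33 of the 37, with a median of -0.30. The median of H-ras KO minus WT was -0.24 and that of WT minus N-ras KO -0.09. Samhd1, a dNTP hydrolase that restricts viruses, was also lower, at -0.94 and -0.70 on 2 of 4 probe sets.

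Of markers of other cells, neutrophil granule genes stood higher in the WT than in either KO array. Their median was 1.39 for WT minus N-ras KO and -1.32 for H-ras KO minus WT, and of 15 measured only Camp, at -0.90, passed 1.5-fold between both KO arrays. No erythroid gene, of 10, passed 1.5-fold. Of 19 NK and cytotoxic genes, 3 had a lower probe set. Of 22 macrophage and dendritic cell genes, the metalloprotease gene Adamdec1 was higher, at 3.86, and the lysozyme gene Lyz2 lower, at -0.59, each on 1 probe set, with a median of 0.02. Their part in the differences of the concordant genes was not tested.

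**Figure D3:**
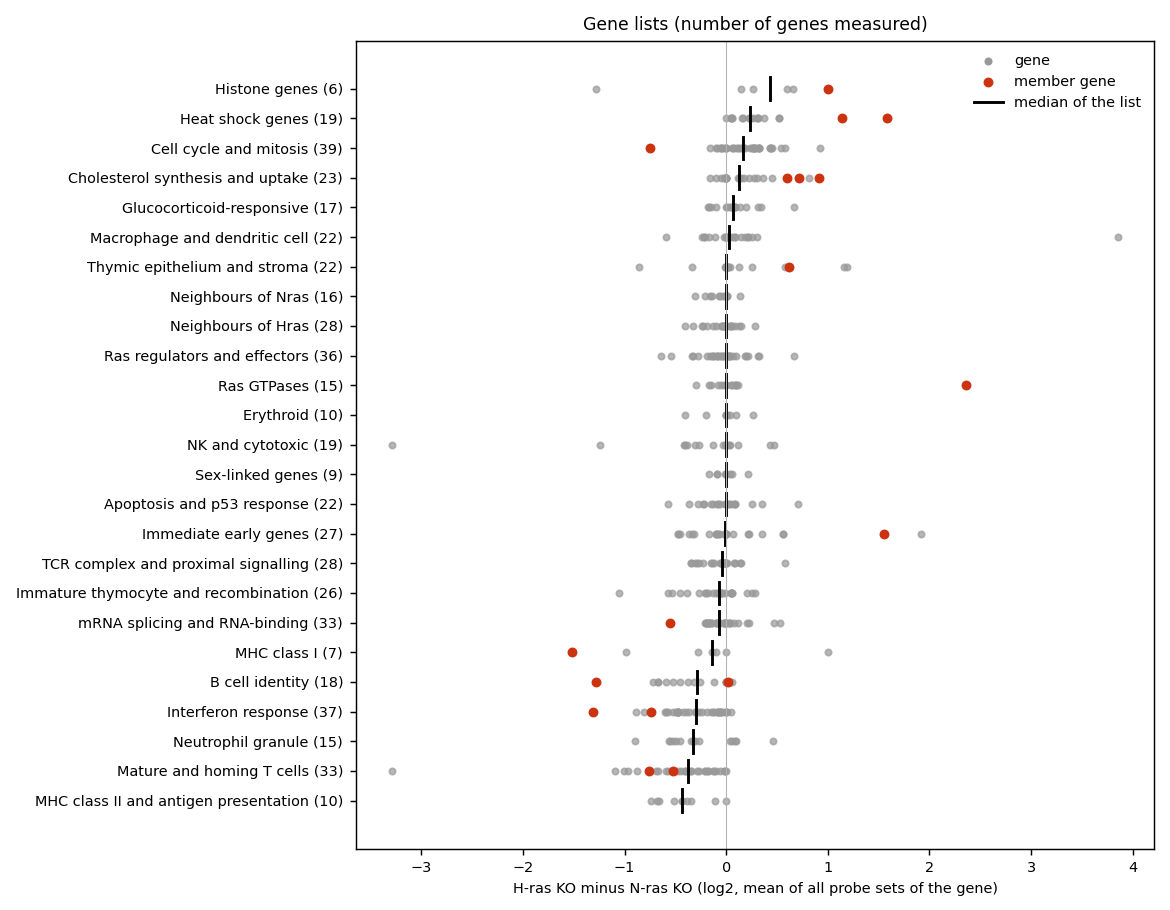
Mean difference of H-ras KO minus N-ras KO over all probe sets of each gene on the log2 scale, for 25 gene lists ordered by their median. Red points are concordant genes and black bars medians, which run from -0.44 for MHC class II and antigen presentation to 0.43 for histone genes.

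Agtrap, a binding protein of the angiotensin II receptor, was high in the N-ras KO alone, at 1.65 and 1.18, against -0.15 and -0.04 in the H-ras KO and 0 in the WT. The zinc finger gene Zfp52 differed by -1.22 and -1.24, with H-ras KO at -0.87 and -0.15 and N-ras KO at 0.35 and 1.09. Gm20559 differed by -1.19 and -1.11. Gprc5b, an orphan receptor, differed by -1.01 and -1.38. Emb, a partner of monocarboxylate transporters, read -0.84 and -1.0 in the H-ras KO and between 0 and 0.02 in the other arrays. Tbc1d23, a protein of endosome-to-Golgi transport, differed by -0.97 and -0.76. The nuclear noncoding RNA Malat1 read 0.64, 0.72 and 0.64 in the N-ras KO on 3 of 5 probe sets, -0.03 to 0 in the H-ras KO and -0.57 to 0 in the WT, so that its N-ras KO array stood apart. 4833420G17Rik was lower on all 3 of its probe sets, by 0.84, 0.65 and 0.78 on the log2 scale.

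By chromosome, the 62 genes were uneven. Chromosome 13 held 9 of them (14.5%) but 3.87% of the genes with 2 or more probe sets, and 7 of the 9 were lower. Chromosome 2 also held 9, with 8.33% of the genes. The X chromosome held none, but its 157 genes are only 3.17% of those with 2 or more probe sets. Along chromosome 13, Emb and 4833420G17Rik are separated by 5 protein-coding genes, and both were lower. Hmgcs1, 2 genes further, was higher. On chromosome 2, Tfpi and Calcrl lie next to each other with no protein-coding gene between, and they went opposite ways. Tfpi, an inhibitor of blood coagulation, read -0.77, -0.91 and -0.79 in the H-ras KO and 0.04, 0.25 and 0.49 in the N-ras KO. Calcrl, a receptor for calcitonin family peptides, read 1.36 and 0.75 in the H-ras KO and 0 in the N-ras KO. In both genes the H-ras KO array stood apart. Of other near pairs, Hspa1b and D17H6S56E-5 (3 protein-coding genes between) were both higher. Ankib1 and Cyp51 (4 between) were both higher as well. No gene on the lists of neighbours of Nras and of Hras, of 16 and 28 measured, passed 1.5-fold. Over all genes only 1.36% had a probe set past it on the higher side and 1.78% on the lower. Lists this small therefore give no result about the neighbours. The neighbouring pairs were picked after their values were seen.

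**Figure D4:**
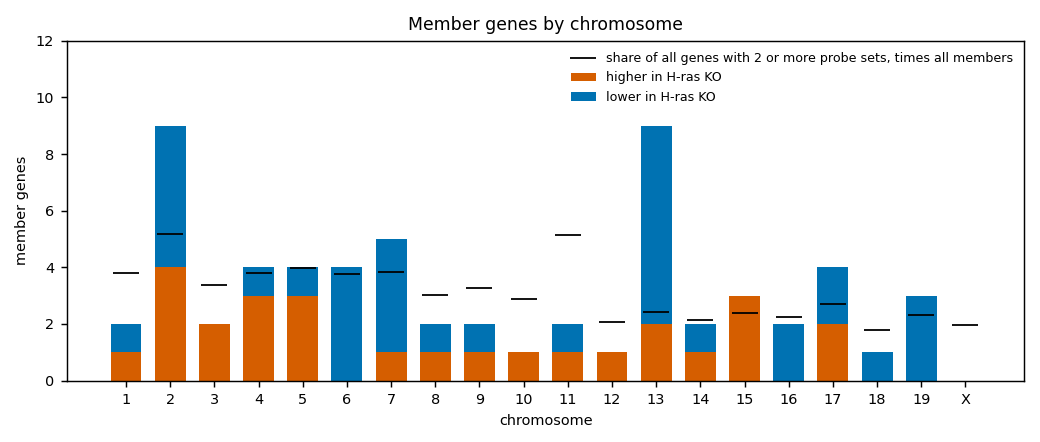
Number of concordant genes on each mouse chromosome, stacked as higher (orange) and lower (blue) in H-ras KO thymocytes. Black ticks give the number that the chromosome would hold at its share of the 4958 genes with 2 or more probe sets, and chromosome 13 has 9 genes.

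The 3 genes just inside the rule on the higher side were Krt8, Dvl1 and Lgals1, whose second probe sets differed by 0.59, 0.59 and 0.60. Clasp2, Cd99 and Klf4 fell just outside, at 0.57, 0.56 and 0.55. On the lower side Afp, Igk and Dapk1 were just inside, each at -0.59, and Rsrp1, Gtf2h4 and Rsad2 just outside, at -0.58, -0.57 and -0.57. Genes on either side of the threshold were thus close to each other. Another 154 genes with 2 or more probe sets had at least 1 probe set past 1.5-fold without meeting the rule, and 3 of these (Ccnd1, Trim34a and Zfp991) had 1 past it in each direction. Trim34a was at 2.70 and -1.46, and Zfp991 at 0.67 and -1.83. Of the 62 genes, 35 passed on every probe set they have, 12 on 3 or more, and 14 differed at least 2-fold on all concordant probe sets. Without probe sets whose IDs mark a match to several sequences, 15 of the 62 genes no longer met the rule. They were Ankib1, Atp9a, Ccl6, Ighm, Krt8, Pkig, Rapgef3 and Tbata on the higher side and Afp, Ceacam1, F2r, Gimap4, Gm20559, H2-D1 and Malat1 on the lower. The mean over the concordant probe sets ranged from 0.60 to 2.36 for the higher genes, with a median of 0.98. For the lower genes it ranged from -4.93 to -0.64, with a median of -0.86.

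The only replicates in the series are the CD4+ T cell arrays, which are of other cells and another array type but hold all 22690 probe set IDs. In these arrays the average of Nras over its 3 probe sets goes against the label in 1 array of each group. This average was -1.84 and -1.47 in the arrays labelled WT replicate 1, unstimulated and stimulated. It was 1.65 and 1.36 in those labelled N-ras KO replicate 3. The other 8 arrays averaged between -0.29 and 0.32, each relative to the unstimulated arrays of its labelled genotype. On 1 of the 3 probe sets, however, the arrays labelled WT stimulated all lay between -0.19 and 0.38, so that none was low there. By the averages, the groups may not hold 1 genotype each, and their spread is not shown to be one between like mice. The pooled SD within the 4 groups of 3 had a median of 0.45 log2 over all 22690 probe sets, and of 0.67 for the 62 genes. Without the 4 arrays these medians were 0.37 and 0.50. All concordant differences exceeded 2 pooled SDs in 11 of the 62 genes, which were Ankib1, Cyp51, H1f2, Krt8 and Tbata on the higher side and Agtrap, Emb, Ets1, Iqgap1, Samhd1 and Supt16 on the lower. Without the 4 arrays the count was 15, and 10 of the 11 genes were among them. These SDs are those of single arrays, whereas each difference is taken between 2 arrays and would spread more widely. The 62 genes were chosen by their differences, and no such count is given over all genes. For the median gene the least favourable concordant probe set differed by 1.11 SDs, or by 1.35 without these arrays. For Nras the least difference was 1.86 SDs with all arrays and 5.93 without the 4, which were chosen by Nras itself.

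**Figure D5:**
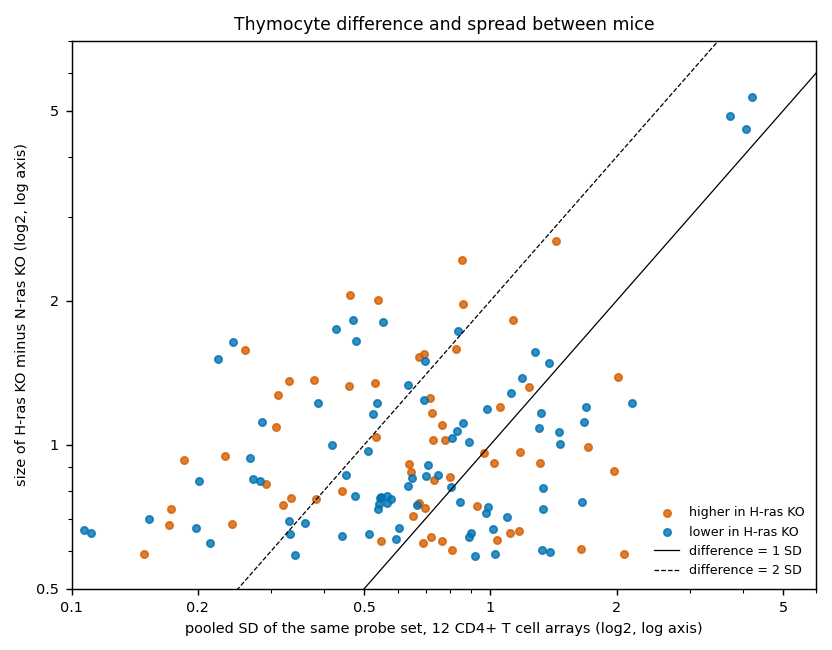
Size of the H-ras KO minus N-ras KO difference of each of the 142 concordant probe sets against the pooled SD of the same probe set within the 4 groups of CD4+ T cell arrays as labelled, all 12 arrays included, both in log2 units on log axes. Lines mark 1 and 2 SDs of single arrays, and the 3 probe sets at the upper right, with SDs of 3.73 to 4.21, are those of H2-D1.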

How the data were processed

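Thymocyte RNA of 1 mouse per genotype (WT, H-ras KO, N-ras KO) was hybridised to separate Affymetrix arrays, with no repeat on other mice. The donors were 6 weeks old per the methods, whereas the labels give a range. The authors deposited log2 expression values, made with RMA (RMA-16 in GeneSpring GX11) with quantile normalization. By the methods, each probe set was then set relative to the median of control samples. The deposited thymocyte values instead had a median of 0 over the 3 arrays on every probe set, so they are not relative to the WT. Where cRNA yield was low it was amplified, and the samples concerned are not named. The number of arrays limits the precision, and brightness cannot be read from these values. Probe sets were named through the GEO platform annotation (20393 name 1 gene, 691 several and 1606 none), and chromosomes and promoters came from RefSeq tables of GRCm38.p6. Probe sets naming several genes were left out. Differences were computed in Python 3.11.15 with pandas 2.3.3, with no test, and the gene rule was tested on simulated data. Gene lists (25) are described by counts and medians of each gene's mean over its probe sets. Named are genes with 3 or more concordant probe sets, the 15 per direction with the largest least difference, those on a list, Nras, Hras and those near the threshold, of which 1 is not reported here. Some others were chosen after their values were seen (Rapgef3, Icos, Ets1, Samhd1, Calcrl and list genes). The concordant genes and lists were chosen with earlier results of these data known. Alternatives were the fold threshold, centring, quantile normalization of the 3 arrays and the choice of probe sets.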

Additional observations from a re-analysis of the deposited data

How the results depend on the processing

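With 1 array per genotype no array could be left out, and no paired analysis was possible because the comparison comes from no test and no group has a second array. At a 2-fold threshold, 18 of the 62 genes were left, 7 higher and 11 lower in H-ras KO thymocytes. When 3 concordant probe sets were required, 12 were left, 5 higher and 7 lower. Counting probe sets of several genes for each gene gave 113 genes, 66 of them higher and 47 lower. The 51 genes so added include histone and class I genes that share probe sets. The other settings left the counts within 1.5-fold. Quantile normalization of the 3 arrays gave 73, with 59 of the 62 kept and Ighm in both directions, and moved Agtrap from -1.51 to -2.25. Leaving out cross-hybridizing probe sets gave 47, all among the 62, and centring 61 or 62. Leaving out the 4 CD4+ T cell arrays whose average Nras goes against the label was a choice made after seeing the data. Without them, 15 instead of 11 genes exceeded 2 pooled SDs. Apart from Ighm, which met the rule in both directions under quantile normalization, no gene reversed. No list with a median of at least 0.1 in size reversed either. Differences near 1.5-fold cannot be told from the spread between mice with 1 array each.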
